A study of Mus musculus with 2 samples.

Results

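The 9 genes described here encode the core of the microRNA pathway in mouse: the Argonaute proteins Ago1, Ago2, Ago3 and Ago4, the nucleases Drosha and Dicer1, their RNA-binding partners Dgcr8 and Tarbp2, and the nuclear exporter Xpo5. They were taken by name from a table of 43346 gene rows, and each of the 9 matched 1 row. Poly(A) RNA was sequenced in paired-end mode from G1E-ER4 cells, an immortalized male mouse erythroid line without a working Gata1 gene of its own, in which GATA1, the main erythroid transcription factor, was put back as an estradiol-dependent fusion with part of the estrogen receptor. All cells had received 10 nM 17beta-estradiol for 30 h to switch that fusion on. There were 2 libraries, numbered as biological replicates 1 and 2 of that 1 condition, and the labels give both the same biosample entry, so the spread between them may be partly technical. No untreated library was analysed here, and the values describe levels in this state and not a response to estradiol.

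A microRNA gene is first copied into a long primary transcript. In the nucleus Drosha, held by Dgcr8, cuts a hairpin out of that transcript, and Xpo5 together with Ran carries the hairpin to the cytoplasm. There Dicer1, with Tarbp2 or a related protein, removes the loop, and 1 strand of the product stays in an Argonaute protein, which uses it to find messenger RNAs through the seed, bases 2 to 8 of the microRNA. In red cell precursors the pathway is best known for miR-144 and miR-451, which are made from 1 primary transcript under GATA1, and for the unusual route of miR-451, whose hairpin is cut by Ago2 itself in place of Dicer1.

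The gene rows summed to 73681318 expected counts (estimated fragments) in replicate 1 and 56056404 in replicate 2. Levels are given as TPM, which are counts corrected for transcript length and brought to a fixed library sum. The erythroid markers Hbb-bs and Hba-a1, the adult globin genes, had 154254 and 67503 TPM in replicate 1 and 133818 and 94658 TPM in replicate 2. Klf1 had 677 and 765 TPM in the libraries, Slc4a1 760 and 557 TPM, Alas2 352 and 299 TPM, and Epb42 1.5 and 1.05 TPM. These are gene totals over all transcripts. By coding transcripts alone the log2 ratio to Ago2 was 3.68 for Hbb-bs, in place of 12.6. It was 6.98 for Hba-a1, in place of 11.8, and 1.53 for Alas2, in place of 3.84. Slc4a1 was at 4.78, in place of 4.84, and Klf1 stayed at 4.99. Of the markers of other cells, the progenitor genes Gata2, Kit and Cd34 summed to 23.9 and 35.5 TPM, nearly all from Gata2, and the megakaryocyte genes Gp1ba, Itga2b and Pf4 to 20.6 and 15.8 TPM. The lymphoid genes Cd79a and Cd3e had 0.30 and 0.05 TPM, and 0.01 and 0 TPM, and the mast cell genes Cpa3 and Mcpt4 had 0 counts in both libraries. Bulk values cannot tell fewer cells of a type from less RNA per cell.

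The 9 genes spanned from 1 count over both libraries to a gene total that few protein-coding genes exceeded. Drosha stood at 276.0 TPM in replicate 1 and 244.1 TPM in replicate 2, and only 411 of 21474 protein-coding genes had a higher mean. Those values sum all of its transcripts, and the coding ones alone gave 67.5 and 65.9 TPM. Tarbp2 had 53.5 and 53.9 TPM and Ago2 had 22.4 and 21.03 TPM. These 3 lay above the median of 15.4 TPM over the 7570 protein-coding genes that reached 1 TPM in both libraries, and the other 6 lay below it. Ago3 had 4.67 and 6.74 TPM, Dicer1 3.54 and 2.89 TPM, Ago1 2.50 and 2.37 TPM, Dgcr8 2.50 and 2.17 TPM, and Xpo5 2.57 and 1.58 TPM. Ago4 was listed at 0 in both. Neighbours in this order did not overlap between the libraries from Drosha down to Ago1, while the ranges of Ago1, Dgcr8 and Xpo5 overlapped. The median of the 9 was 3.54 TPM in replicate 1 and 2.89 TPM in replicate 2.

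**Figure D1:**
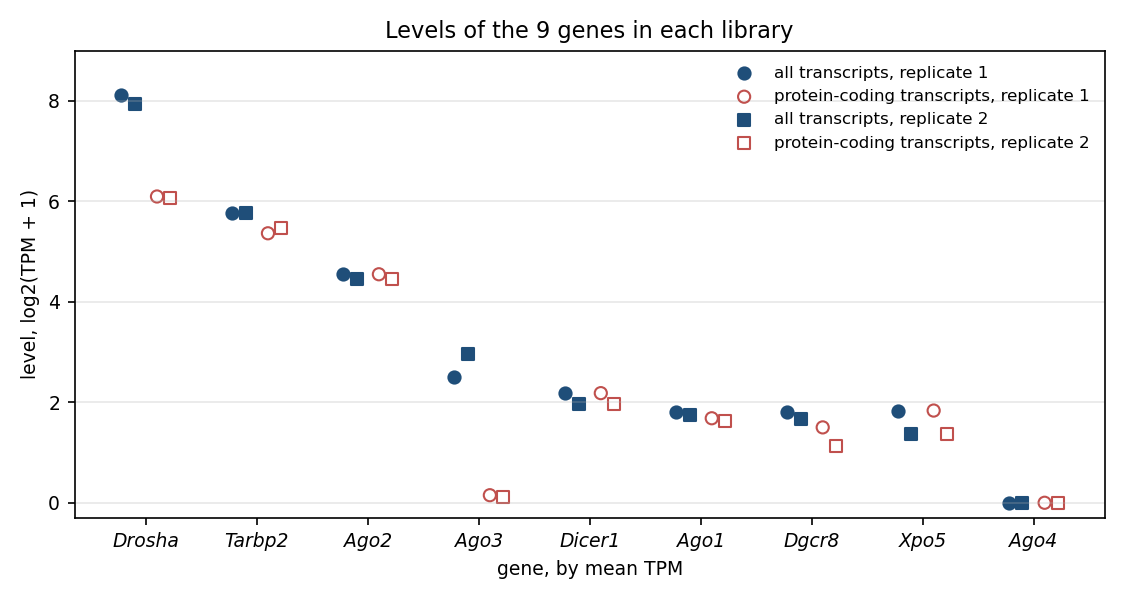
Level of each gene as log2(TPM + 1), ordered by mean TPM, with filled symbols for the sum over all its transcripts and open symbols for its protein-coding transcripts alone, circles for replicate 1 and squares for replicate 2. Drosha is highest on both sums, Ago3 drops to 0.11 and 0.08 TPM once its short non-coding transcript is left out, and Ago4 lies at 0.

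Of the 4 Argonaute genes, Ago2 supplied most of the RNA. It encodes the main Argonaute able to cut a paired target, and in both libraries it held the largest share of the summed Argonaute TPM, 75.8% in replicate 1 and 69.8% in replicate 2. Ago3 followed with 15.8% and 22.4%, and Ago1 with 8.45% and 7.86%. By counts, which do not correct for length, Ago2 held 93.9% and 93.6%. By protein-coding transcripts alone it held 90.6% in each library, with Ago1 at 8.93% and 9.05% and Ago3 at 0.445% and 0.345%.

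The difference in kind between these proteins can be seen at the codon for the last of the catalytic residues, where mouse Ago2 and Ago3 carry histidine and Ago1 and Ago4 carry arginine. The 33 coding bases around it are shown because they separate the Argonautes that keep the full set of cutting residues from those that do not. Capitals mark the codon, and the bases are those of the GENCODE M21 transcripts on GRCm38, 5′ to 3′ in the sense of the gene.
Ago1: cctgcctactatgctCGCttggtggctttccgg
Ago2: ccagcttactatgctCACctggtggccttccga
Ago3: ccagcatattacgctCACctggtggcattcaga
Ago4: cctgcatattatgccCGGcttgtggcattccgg
The codon is number 805 of 857 in Ago1, 808 of 860 in Ago2, 808 of 860 in Ago3 and 809 of 861 in Ago4. Having this residue does not by itself make a protein cut: mammalian Ago3 is far less active on targets than Ago2. The predicted proteins were 79.0% identical for the most distant pair, Ago2 and Ago4, and 86.1% identical for the closest, Ago1 and Ago3. The main coding transcripts shared few 31-base words, which bears on how reads can be divided between them. Ago2 shared no 31-base word with Ago3 or Ago4 and 23 of 13767 with Ago1, and Ago1 and Ago3 shared 140, the most of any pair.

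Ago2 (chr15:73095844-73184935, minus strand, mm10) was read from 1 deposited transcript, the coding Ago2-201 of 13705 bases, with 22645 counts in replicate 1 and 16288 in replicate 2. It lies tail to tail with Chrac1, a chromatin-assembly subunit on the opposite strand, over 1711 bases. Chrac1 had 31.5 and 27.8 TPM, and the sources do not say whether counting used strand, so reads in those bases cannot be assigned with certainty.

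Ago4, Ago1 and Ago3 lie one after the other on the minus strand of chromosome 4, at chr4:126489541-126533472, chr4:126435012-126468583 and chr4:126331704-126429556. The 3 neighbours differed widely. Ago1 had 1196 counts in replicate 1 and 881 in replicate 2, of which its coding transcript Ago1-201 (7227 bases) took 93.5% in each. A second transcript annotated for nonsense-mediated decay, Ago1-202, held 10.4% and 11.1% of the gene's TPM. Ago4 had 0 counts in replicate 1 and 1 count in replicate 2. A count of 0 in replicate 1 allows up to 3 counts at a one-sided 95% bound, or 0.00631 TPM for its coding transcript. At that bound Ago2 was at least 3556-fold higher in that library. The 1 count in replicate 2 corresponds to 0.00275 TPM. The ratio of Ago2 over it was 7660, with an exact two-sided Poisson 95% interval of 1375 to 302550. That interval covers counting error only, and its lower end is not on the same footing as the one-sided bound.

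The level of Ago3 rested on a short transcript that does not encode the protein. Of 284 counts in replicate 1 and 237 in replicate 2, Ago3-202, a processed transcript of 613 bases, took 155.46 and 168.31, and the full coding transcript Ago3-201 of 15595 bases took 128.49 and 68.69. Because TPM divides by length, Ago3-202 held 97.6% and 98.9% of the gene's TPM and Ago3-201 only 2.39% and 1.15%. The coding transcripts of Ago3 therefore stood at 0.11 and 0.08 TPM, below Ago1 in both libraries, whereas the gene total stood above Ago1 in both.

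Ago3-202 has 3 exons and shares 92.6% of its 31-base words with Ago3-201. Its last 43 bases are the longest stretch without a shared word, and they lie in an intron of the coding transcript (chr4:126407696-126407738, minus strand). They are shown because they are the part of the short form that the long one lacks. Capitals mark the 43 bases.
Ago3-202 end: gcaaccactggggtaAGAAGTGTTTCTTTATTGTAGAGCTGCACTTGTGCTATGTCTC

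Drosha (chr15:12824815-12935291, plus strand), the nuclease of the nuclear step, had the same feature on a larger scale. Its coding transcripts held 21725.7 of 32449 counts in replicate 1 and 16207.6 of 23414 in replicate 2, but only 24.5% and 27.0% of its TPM. The rest came from short processed transcripts at the 5′ end of the gene. Drosha-203 and Drosha-204, each of 881 bases, were each given 4523.85 counts in replicate 1 and 3564.18 in replicate 2, which is 30.3% and 36.0% of the gene's TPM apiece. The full-length coding Drosha-201 (4471 bases) held 24.3% and 26.9%. Another form, Drosha-206 of 699 bases, held 14.96% in replicate 1 and 1.06% in replicate 2. Counted by coding transcripts alone Drosha stood at 67.5 and 65.9 TPM, still the highest of the 9 genes.

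Drosha-203 and Drosha-204 differ in a single exon. Each has 5 exons, of which 4 are the same, and exon 4 is a 51-base exon that no coding Drosha transcript contains, at chr15:12830303-12830353 in Drosha-203 and chr15:12832439-12832489 in Drosha-204. The exons are shown because they are where the pair differs. They lie between the exon with the start codon and the next coding exon. Capitals mark the exon and lower case the 15 coding bases before it, on the plus strand.
Drosha-203: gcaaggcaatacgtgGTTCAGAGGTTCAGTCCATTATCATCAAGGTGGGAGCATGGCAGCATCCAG
Drosha-204: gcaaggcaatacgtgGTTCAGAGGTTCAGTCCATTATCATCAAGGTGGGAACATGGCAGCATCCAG
The transcripts differ by 1 base, G254A, counted from the 5′ end of the transcript with Drosha-203 first. The deposited estimate split the counts of the pair equally, and the posterior mean estimate did not: it gave Drosha-203 18.8% and 25.3% and Drosha-204 40.7% and 45.7%. Both transcripts share 90.8% of their 31-base words with Drosha-201, and Drosha-206 shares 95.5%. The summed Drosha level is thus an estimate that divides reads of the 5′ end between long and short forms, and no value here measures that division independently.

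**Figure D2:**
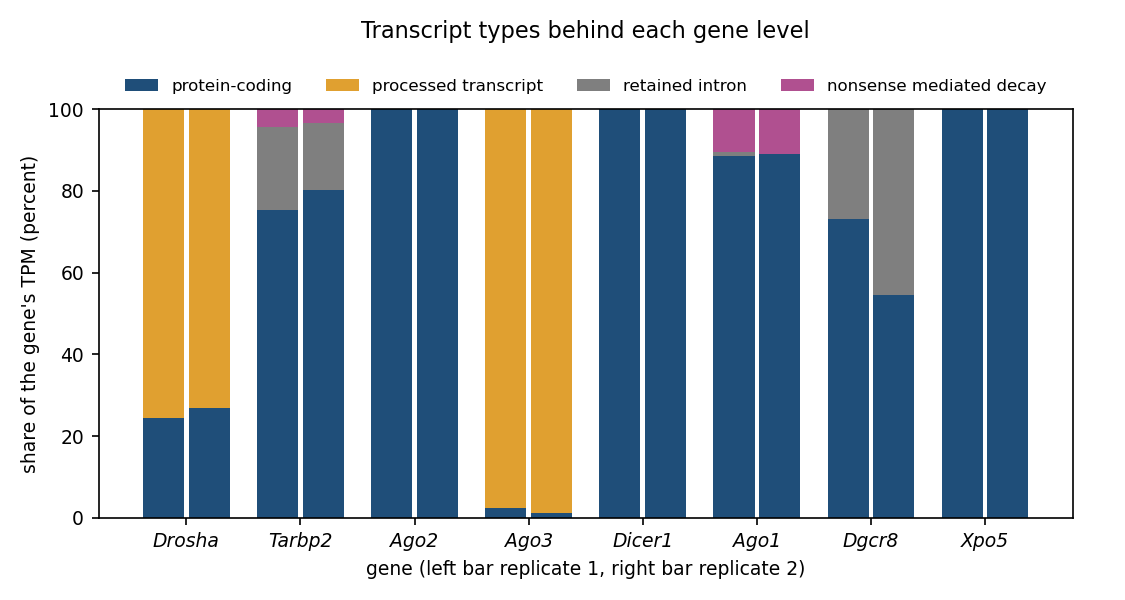
Share of each gene's TPM by annotated transcript type, in percent, with the left bar for replicate 1 and the right bar for replicate 2, for the 8 genes with a level above 0. Protein-coding transcripts take all of Ago2, Dicer1 and Xpo5, 24.5% and 27.0% of Drosha, and 2.42% and 1.15% of Ago3.

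Dgcr8 (chr16:18253948-18289246, minus strand), the partner that recognises the hairpin base, was far below Drosha. Its 724 counts in replicate 1 and 417 in replicate 2 gave 2.50 and 2.17 TPM. The coding Dgcr8-201 held 73.0% and 54.5% of that, and the retained-intron forms Dgcr8-203 and Dgcr8-205 held 21.2% and 28.3%, and 2.72% and 14.4%. Dgcr8-205 rested on 2.37 and 8.02 counts. The gene overlaps Trmt2a, a tRNA methyltransferase gene on the opposite strand with 11.5 and 9.36 TPM, over 825 bases. On the same strand it overlaps Gm49776, annotated as protein-coding, over 4374 bases. Gm49776 had no gene row of its own, and how reads in those bases were assigned was not tested.

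Dgcr8 is itself a target of the nuclear step, since Drosha and Dgcr8 cut hairpins in the Dgcr8 message. A coding exon of Dgcr8-201 contains the miR-1306 hairpin of 79 bases (chr16:18284239-18284317, minus strand), shown here from RefSeq on GRCm38.p6 with the mature arms in capitals.
Mir1306: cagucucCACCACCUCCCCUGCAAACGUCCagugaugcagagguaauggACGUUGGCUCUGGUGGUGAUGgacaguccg
The row of Mir1306 itself had 0 counts in both libraries. Of the 1894 microRNA rows, 1607 had an effective length, the number of places a sequenced fragment can start, of under 1 base in both libraries, and 6 had any counts. Mature microRNAs and most hairpins could not be counted in these libraries. Mir486, a microRNA gene with 2 counts in replicate 1 and 0 in replicate 2, was listed at 7.38 and 0 TPM and is named after its values were seen.

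Xpo5 (chr17:46202782-46243598, plus strand) had 681 counts in replicate 1 and 319 in replicate 2, all on 1 coding transcript. Dicer1 (chr12:104687742-104751952, minus strand) had 2561 and 1600 counts, also on 1 coding transcript. Its partner Tarbp2 (chr15:102518192-102523676, plus strand) had nearly the same TPM in the libraries, but that total was divided differently. The short coding Tarbp2-210 (370 bases) held 35.6% in replicate 1 and 26.4% in replicate 2. The long Tarbp2-201 (1523 bases) held 20.01% and 22.5%. Tarbp2-207 held 0% in replicate 1 and 27.5% in replicate 2, from 0 and 516.77 counts, whereas Tarbp2-208 held 15.2% and 1.32%, from 559.81 and 36.94 counts. The retained-intron Tarbp2-206 held 13.7% and 11.1%. Coding transcripts together came to 40.2 and 43.3 TPM, 75.2% and 80.3% of the gene.

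Ratios between genes were tested within libraries on log2(TPM + 1), which understates the difference from low genes, with limma on the 8246 genes whose mean reached 1 TPM, and p-values were adjusted over all of them by Benjamini and Hochberg, with a threshold of 0.05. Ago4 did not reach 1 TPM and was not tested, so 7 of the 8 other genes were tested against each base. A difference in the base gene between the libraries enters every ratio to it. The ± on a ratio is the limma SE, moderated over all genes tested, and not the spread between the libraries alone. The ratios of Drosha and Dicer1 as bases were moderated to a common spread with no upper limit on its weight, so their p-values treat that spread as known and are too small to read as such.

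Against Ago2, Drosha was higher by 3.52 ± 0.14 and Tarbp2 by 1.27 ± 0.13 (log2, moderated SE, n = 2 libraries). In TPM these were 12.3-fold and 11.6-fold for Drosha and 2.39-fold and 2.56-fold for Tarbp2 in replicates 1 and 2. The other 5 tested genes were lower: Ago3 by a log2 ratio of -1.78, Dicer1 -2.43, Ago1 -2.73, Dgcr8 -2.77 and Xpo5 -2.90. The largest adjusted p (limma) among the 7 was 3.14e-05. Of all genes tested, 33.8% were higher than Ago2 and 54.6% lower, against 2 and 5 of these 7. By protein-coding transcripts alone Drosha was 3.01-fold and 3.13-fold above Ago2, a log2 ratio of 1.58. Ago3 fell under 1 TPM and left the test. Tarbp2 had a log2 ratio of 0.91 there, but its coding sum includes short transcripts. The long Tarbp2-201 alone had 10.71 and 12.15 TPM, below Ago2 in both libraries. The direction of Tarbp2 against Ago2 thus turned with the transcripts counted. After adjustment for GC content the ratio of Dicer1 was -1.51 and that of Ago3 -0.83. Both settings were added after the data were seen.

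Drosha and Dgcr8 work as 1 complex but had very different levels. Dgcr8 was 0.00906-fold of Drosha in replicate 1 and 0.00889-fold in replicate 2, a log2 ratio of -6.29 ± 0.15. By coding transcripts alone it was 0.0271-fold and 0.0179-fold, with a log2 ratio of -4.77. All 7 tested genes were lower than Drosha, from -2.25 for Tarbp2 to -6.42 for Xpo5, with a largest adjusted p (limma) of 1.35e-34. By coding transcripts the 6 genes tested ran from -0.66 for Tarbp2 to -4.77 for Dgcr8, and Xpo5 was at -4.48. With GC adjustment Dicer1 moved to -4.85 against Drosha, in place of -5.95, and Ago3 to -4.17, in place of -5.30. Of all genes, 93.4% were lower than Drosha and 3.82% higher, so being lower than Drosha is shared with most genes.

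In the cytoplasmic step the partner exceeded the nuclease. Tarbp2 was 15.1-fold of Dicer1 in replicate 1 and 18.7-fold in replicate 2 (log2 ratio 3.70 ± 0.21), and by coding transcripts 11.4-fold and 14.98-fold. With GC adjustment the log2 ratio was 2.28. The long Tarbp2-201 alone had 10.71 and 12.15 TPM, against 3.54 and 2.89 TPM for Dicer1. Drosha (5.95), Ago2 (2.43) and Ago3 (0.66) were also higher than Dicer1, with adjusted p (limma) of at most 2.73e-04. The ratio of Drosha was 4.01 by coding transcripts and 4.85 with GC adjustment, that of Ago2 was 1.51 with GC adjustment, and that of Ago3 was 0.32 in replicate 1 and 0.99 in replicate 2. By coding transcripts Ago3 was 0.0311-fold and 0.0277-fold of Dicer1, so its direction against Dicer1 turned with the transcripts summed. Of all genes, 73.5% were higher than Dicer1 and 14.4% lower.

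Dgcr8, Xpo5 and Ago1 lay close to Dicer1. Dgcr8 was lower by a log2 ratio of -0.34 ± 0.16 (limma, adjusted p = 0.0391), a call that was lost with a pseudocount of 0.1, no filter, no trend in the moderation or posterior mean TPM. It was kept with GC adjustment (-0.85) and with coding transcripts alone (-0.76). Xpo5 was lower by -0.47 ± 0.16 (adjusted p = 0.0031, limma), a call lost with posterior mean TPM, where it was 0.0912. Ago1 had a ratio of -0.29 ± 0.16 that was not called (limma, adjusted p = 0.0758), and it was called with GC adjustment (-0.68) and with coding transcripts alone (-0.41).

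The genes around the core were mostly expressed. Of the 15 nuclear cofactors of Drosha, 14 reached 1 TPM in each library, and the list median was 29.9 TPM. The RNA helicase Ddx5, at 1216 and 974 TPM in replicates 1 and 2, was the only one of the 14 tested that was higher than Drosha, while 12 were lower. Over all genes the shares were 3.82% higher and 93.4% lower. The scaffold protein gene Safb2, with 226 and 199 TPM, was not called (log2 ratio -0.29). The splicing regulator Khsrp had 173 and 187 TPM, and the adenosine deaminase gene Adarb1 was lowest with 5 and 0 counts. With every gene summed over its coding transcripts alone, 3 of 13 were higher than Drosha, namely Khsrp, Srrt and Safb2, and 7 were lower. In that setting 902 of 7253 genes were higher than Drosha and 5948 lower. The call of Ddx5 was lost in that setting, with a log2 ratio of 0.12 (limma, adjusted p = 0.377).

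All 8 genes for hairpin export and Dicer partners reached 1 TPM in each library, and their median was 14.9 TPM. Ran, the GTPase that binds Xpo5 with its cargo, had 1639 and 1838 TPM, its activating protein gene Rangap1 had 76.0 and 55.8 TPM, and Snd1, a nuclease of the silencing complex, 40.5 and 33.1 TPM. The log2 ratio of Ran to Dicer1 was 8.69, and 5.36 by coding transcripts alone. Of the 8, 7 were higher than Dicer1 and 0 lower, against 73.5% and 14.4% of all genes. Coding transcripts alone gave 5 higher and 2 lower, against 5130 and 1191 of 7253 genes. The lowest was Prkra, which encodes the Dicer partner related to Tarbp2, at 2.97 and 3.48 TPM, with a log2 ratio to Dicer1 of 0.01 (limma, adjusted p = 0.976). Tarbp2 thus stood well above Prkra in both libraries.

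Of the 13 chaperone genes that open Argonaute for loading, 13 reached 1 TPM in each library, and their median was 66.6 TPM. Of the 13, 10 were higher than Ago2 and 2 lower, against 33.8% and 54.6% of all genes. Coding transcripts alone gave 9 higher and 4 lower, against 2134 and 4387 of 7253 genes. The constitutive heat shock protein gene Hspa8 had 418 and 319 TPM, its co-chaperone Dnaja1 215 and 148 TPM, and the Hsp90 partner Cdc37 180 and 177 TPM. Fkbp5 was lowest at 2.19 and 1.31 TPM.

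Downstream of Argonaute, 12 of 14 genes for TNRC6 proteins and their linkers reached 1 TPM in each library, and their median was 17.2 TPM. Of the 12 tested, 5 were higher than Ago2 and 5 lower, against 33.8% and 54.6% of all genes. Coding transcripts alone gave 4 higher and 6 lower, against 2134 and 4387 of 7253 genes. The poly(A)-binding protein gene Pabpc1 had 1538 and 1439 TPM, Fxr2 109 and 184 TPM and the decapping linker Eif4enif1 62.5 and 85.1 TPM, while Wtip had 0 counts. The log2 ratio of Eif4enif1 to Ago2 was 1.70, and 0.70 by coding transcripts alone. The TNRC6 genes, which encode the direct Argonaute partners and were named after their values were seen, had 18.8 and 21.5 TPM for Tnrc6c, 9.70 and 10.6 TPM for Tnrc6b, and 8.61 and 8.35 TPM for Tnrc6a. Tnrc6c was not called against Ago2 and the other two were lower.

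All 23 genes of deadenylation and decapping reached 1 TPM in each library, and their median was 8.91 TPM. Of the 23, 7 were higher than Ago2 and 14 lower, against 33.8% and 54.6% of all genes. Coding transcripts alone gave 4 higher and 16 lower, against 2134 and 4387 of 7253 genes. The CCR4-NOT subunit gene Cnot3 had 539 and 495 TPM, Btg2, which recruits that complex, 160 and 135 TPM, and the nuclease gene Cnot6 80.2 and 78.1 TPM. The level of Cnot3 rested on its other transcripts. With coding ones alone its log2 ratio to Ago2 was 0.016 (limma, adjusted p = 0.952), in place of 4.51. Pan2 was lowest at 1.43 and 1.03 TPM.

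Of 14 genes for microRNA stability and tailing, 10 reached 1 TPM in each library, and their median was 10.2 TPM. Of the 10 tested, 3 were higher than Ago2 and 6 lower, against 33.8% and 54.6% of all genes. Coding transcripts alone gave 2 higher and 7 lower of 9, against 2134 and 4387 of 7253 genes. Zswim8, a ubiquitin ligase adaptor that marks Argonaute for breakdown in target-directed microRNA decay, had 54.1 and 59.0 TPM. Pnpt1 had 45.9 and 33.4 TPM and the poly(A) polymerase gene Tent2 28.3 and 45.0 TPM. With coding transcripts alone Pnpt1 fell under 1 TPM and left the test. Henmt1, whose product methylates the ends of PIWI-bound RNAs, had 0 counts. None of the 9 genes of the PIWI branch, which acts mainly in germ cells, reached 1 TPM in both libraries, and 7 had 0 counts in both. Piwil4 had 17 counts in each library, or 0.07 and 0.09 TPM, and Piwil2 had 0 and 2 counts.

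**Figure D3:**
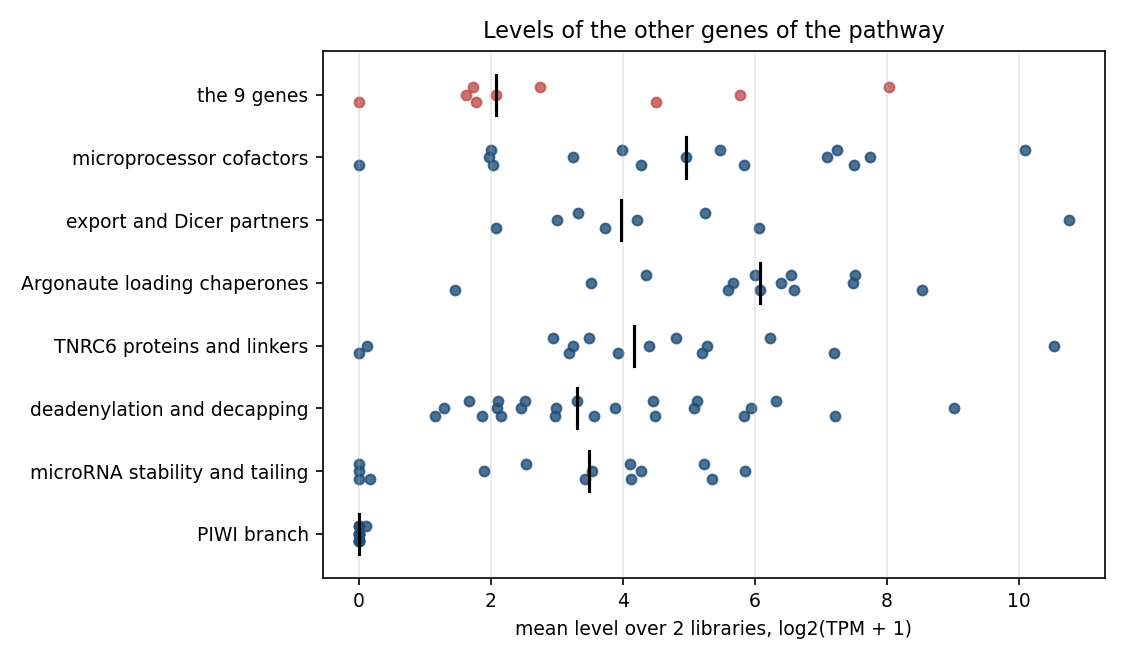
Mean level over 2 libraries as log2(TPM + 1), 1 point per gene, for the 9 genes in red and each pathway list in blue, with a black bar at the list median. The 9 genes have a median of 3.21 TPM, the chaperones of 66.6 TPM, and the PIWI branch lies at or near 0.

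The hairpins that the pathway is known for in red cells were not measurable. The rows of Mir144 and Mir451a, of 66 and 72 bases, had 0 counts and an effective length of 0. They are shown because they differ in the way the text above describes: miR-144 has an arm on each side of the loop, and the mature miR-451a, bases 17 to 38, runs into the loop. Capitals mark the mature microRNAs, from RefSeq on GRCm38.p6 (chr11:78073005-78073070 and chr11:78073170-78073241, plus strand).
Mir144: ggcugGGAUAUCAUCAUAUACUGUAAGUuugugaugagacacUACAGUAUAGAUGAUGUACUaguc
Mir451a: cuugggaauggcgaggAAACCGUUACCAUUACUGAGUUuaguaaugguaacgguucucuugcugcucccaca

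Genes that carry a microRNA within them can be read through their own spliced message, which says nothing of how much microRNA is made. Of 39 rows of microRNA genes and hosts, 8 reached 1 TPM in both libraries and 26 had 0 counts in both. Mir142hg, the host transcript of miR-142, had 441 and 413 TPM on a 269-base model with 3745 and 2307 counts. Smc4, a condensin gene that holds miR-15b and a copy of miR-16, had 117 and 81.4 TPM. Dalrd3 had 40.5 and 39.4 TPM. It was listed as a host, but the annotation used placed no hairpin within it on its strand. Pank2, a host of miR-103, had 32.9 and 41.7 TPM. Pank3, which holds another copy with the same mature miR-103-3p, had 3.46 and 4.29 TPM. Dleu2, which holds the other copy of miR-16, had 13.1 and 20.6 TPM. The replication helicase gene Mcm7 had 8.18 and 6.16 TPM, and Mir17hg 0.03 and 0.01 TPM from 8 and 1 counts. Pank2, Pank3, Dleu2, Mcm7 and Mir17hg are not among the 3 highest of the list and are named, after their values were seen, for the seeds of their microRNAs.

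The mature sequences are shown by seed, in capitals, to group the hosts. The label of miR-16-5p names Dleu2 and that of miR-103-3p names Pank2, but Smc4 and Pank3 hold the same sequences. Those of Smc4 and Dleu2 share AGCAGCA, and those of Mcm7 and Mir17hg share AAAGUGC, with the hosts at 8.18 and 6.16 TPM (Mcm7) and 0.03 and 0.01 TPM (Mir17hg).
miR-15b-5p (Smc4): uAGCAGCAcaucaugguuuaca
miR-16-5p (Dleu2): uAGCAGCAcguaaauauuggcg
miR-93-5p (Mcm7): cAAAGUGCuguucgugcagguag
miR-106b-5p (Mcm7): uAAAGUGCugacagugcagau
miR-17-5p (Mir17hg): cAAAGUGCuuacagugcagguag
miR-20a-5p (Mir17hg): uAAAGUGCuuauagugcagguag
miR-142a-3p (Mir142hg): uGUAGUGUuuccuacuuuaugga
miR-103-3p (Pank2): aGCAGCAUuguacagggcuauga
On GRCm38.p6 these lie within their hosts at chr3:69009775-69009796 (plus strand) for miR-15b-5p and chr14:61631936-61631957 (minus) for miR-16-5p. Those in Mcm7 lie on the minus strand at chr5:138165574-138165596 for miR-93-5p and chr5:138165787-138165807 for miR-106b-5p. Those in Mir17hg lie on the plus strand at chr14:115043684-115043706 for miR-17-5p and chr14:115044183-115044205 for miR-20a-5p. The last pair, also on the plus strand, lie at chr11:87756903-87756925 for miR-142a-3p and chr2:131288103-131288125 for miR-103-3p.

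The replicates differed in 3 of the 9 genes beyond counting error. An exact two-sided binomial test on TMM-scaled counts, with Benjamini-Hochberg adjustment over 10445 genes with at least 20 counts, compares these 2 libraries and not conditions. Xpo5 was lower in replicate 2 than in replicate 1 by a log2 difference of -0.63 (exact 95% interval -0.83 to -0.44, adjusted p = 2.31e-10). Dgcr8 was lower by -0.33 (-0.51 to -0.16, exact binomial, adjusted p = 4.27e-04) and Dicer1 by -0.21 (-0.31 to -0.12, exact binomial, adjusted p = 8.43e-06). Drosha, Ago2, Ago1, Tarbp2 and Ago3 were not called, with differences of -0.01, -0.01, 0.02, 0.04 and 0.20, and Ago4 had too few counts. Of all genes, 30.0% were higher and 29.2% lower in replicate 2, so differences of this kind were common, and 0 and 3 of the 8 tested genes fell in these classes. With library totals in place of TMM the split over all genes was 2423 higher and 3776 lower, in place of 3136 and 3047, and Ago2 and Drosha were also called lower, by -0.08 each.

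Among the surrounding genes, against 30.0% higher and 29.2% lower over all genes, 3 of the 13 chaperones were higher in replicate 2 and 9 lower, 1 of the 8 export and Dicer partners higher and 6 lower, and 7 of 13 tested TNRC6 proteins and linkers higher and 2 lower. The nuclear cofactors had 3 higher and 6 lower of 14 tested, deadenylation and decapping 4 and 9 of 23, stability and tailing 4 and 6 of 11, and the microRNA hosts 4 and 3 of 9. The 1 PIWI gene tested was not called. The 7 granulocyte and monocyte markers also differed. They summed to 17.3 TPM in replicate 2 and 5.28 TPM in replicate 1, and 5 of the 5 tested were higher in replicate 2. Mpo, Prtn3 and Elane had 3.96, 3.76 and 3.04 TPM in replicate 2 against 0.19, 0.08 and 0.04 TPM in replicate 1, Ctsg and Lyz2 had 21 and 7 counts against 0, Spi1 had 5.95 TPM against 4.97 TPM, and Ms4a3 had 0 counts in both. Their part in the differences of Xpo5, Dgcr8 and Dicer1 was not tested.

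**Figure D4:**
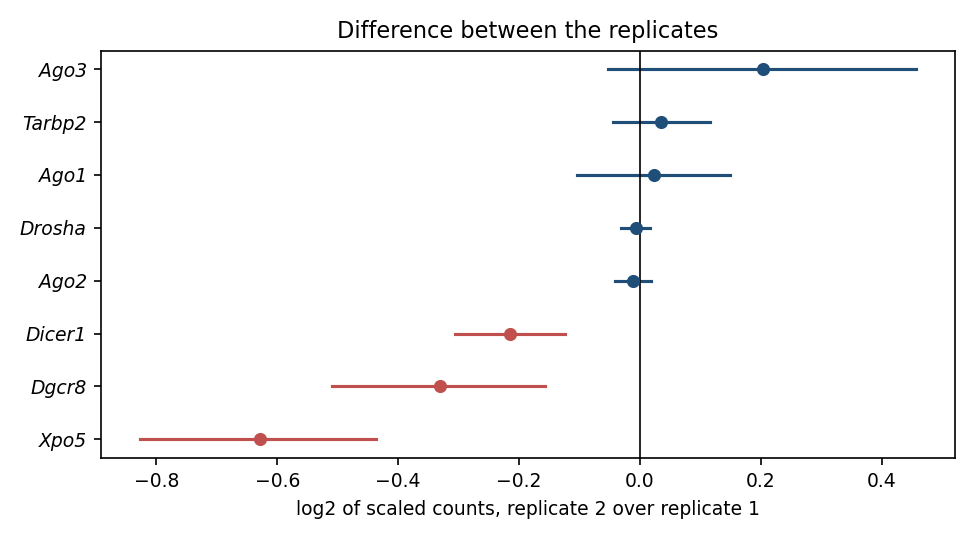
Log2 of scaled counts in replicate 2 over replicate 1 for the 8 genes with at least 20 counts, with exact 95% intervals that cover counting error only; red marks genes called at an adjusted p under 0.05. Xpo5, Dgcr8 and Dicer1 lie below 0 at -0.63, -0.33 and -0.21, and the intervals of the other 5 include 0.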

How the data were processed

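Poly(A) RNA was sequenced in 2 libraries of 1 group. The authors deposited gene and transcript tables; per the deposited description files the build is mm10 with GENCODE M4, and no source used here names the aligner, the quantifier or the strand setting. Expected counts are the authors' estimated fragment counts, per the file headers. TPM and FPKM are the authors' length-corrected values, per the file headers. The deposited transcript tables add the percent share of every transcript in its gene's TPM. GENCODE M21, also on this build, supplied names, transcript types and GC content and matched 42462 of 43346 gene rows. The 26248 rows named by a number and 97 spike-in rows were left out, with 6.79e-06% and 7.14e-06% of counts.

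Ratios to Ago2, Drosha and Dicer1 were fitted with limma 3.58.1 on log2(TPM + 1) within libraries. Replicates were compared by exact binomial tests of rounded expected counts, scaled with edgeR 4.0.16; DESeq2 1.42.0 size factors were an alternative. There was no contrast between conditions, so no quasi-likelihood fit was made. Identities were computed with Biopython 1.88 from M21 coding sequences. Mature microRNAs and hairpins are from RefSeq. The steps were tested on simulated data. Alternatives were other pseudocounts and filters, FPKM, posterior means, TPM summed without globin and mitochondrial genes, moderation without a trend, other scalings and count minimums, share of counts, leaving out each library and, added after the data were seen, coding transcripts alone and GC adjustment. R 4.3.3 and Python 3.11.15 were used.

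The genes and lists were chosen with earlier results of these data known. Of the lists, the 3 highest genes and the lowest are named, of each gene the 2 leading transcripts and any other with 10% or more, and the cell type markers, some of which are not reported here; others are said to be named after their values were seen. Of the list entries 11 were not matched, 6 of them older names of genes that were. Intervals and floors cover counting error only, and PCR duplicates are not separated.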

Additional observations from a re-analysis of the deposited data

How the results depend on the processing

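No paired analysis was possible because the 2 libraries belong to 1 group. Leaving out either library kept the direction of each tested ratio. Counts of genes lower than the base grew with weaker filters, since more genes were tested: to 6920 (mean of at least 0.1 TPM) and 39642 (no filter) for Ago2, to 42795 (no filter) for Drosha, and to 3620 and 36254 for Dicer1. With coding transcripts alone, 902 genes were higher than Drosha, and with GC adjustment 1886 were lower than Dicer1; both were added after the data were seen. Of the 9 genes, those lower than Dicer1 numbered 2, but 1 with a pseudocount of 0.1, 1 without a trend, 0 with posterior mean TPM, and 3 each with coding transcripts alone and with GC adjustment. The median of the 9 genes was 4.45 TPM when globin and mitochondrial genes were left out of the TPM sum and 2.155 TPM by coding transcripts, and the Ago2 share of Argonaute TPM was 90.6% by coding transcripts. With library totals, 5 of the 9 genes were lower in replicate 2 in place of 3. The causes of the changes other than those of the filters and totals were not tested. Depth limits Ago4, for which a count of 0 allows up to 3 counts at a one-sided 95% bound. It also limits the short transcripts, whose shares rest on the estimation.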
